A study of Homo sapiens with 6 samples.

Results

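Keratins are the intermediate filament proteins of epithelial cells, and a filament forms only when a type I and a type II keratin pair with each other. Simple epithelia build their filaments mainly from KRT8 and KRT18, joined by KRT7, KRT19 and, in the intestine and the urothelium, KRT20. KRT6A, KRT16 and KRT17 are the keratins that epidermis makes at wound edges and under stress, whereas KRT81 is known from the hair shaft. The RNA of these genes was followed here in ovarian cancer cells exposed to SpiD7. The 10 members were chosen by their symbols out of 29982 gene symbols in the table, by a rule that used no measured value. They were grouped here as 6 simple epithelial keratins (type II KRT7, KRT8 and KRT80 and type I KRT18, KRT19 and KRT20), 1 hair keratin (KRT81, type II) and 3 stress keratins (KRT6A, type II, and KRT16 and KRT17, type I). The placement of KRT80 in the simple group is a choice made here.

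OVCAR5 is an established human ovarian cancer line, which was grown in high-glucose DMEM with 10% FBS. SpiD7 is a dimer of a spirocyclic α-methylene-γ-butyrolactone, a group that reacts with cysteine, and the study used the RNA to follow the unfolded protein response. The 4 groups were vehicle (DMSO, 2 libraries, with no duration in the labels) and 10 μM SpiD7 for 2 h (2 libraries), 6 h (1 library) and 12 h (1 library). The labels name no genetic change in any group, and nothing in them says that libraries of a group came from separate cultures, so that p-values measure only the spread between these libraries, which may be technical.

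The deposited table gives FPKM, that is, fragments relative to the length of the transcript and to all mapped fragments of the library, which allows levels to be compared between genes. The columns named for the second DMSO and the second 2 h library behaved as the authors' means of both libraries, and the second libraries (called recovered below) were obtained by subtraction. This reading rests on the values alone. The recovered libraries stood apart from the other 4: MIR6723 took 25.0% and 21.8% of their summed FPKM, against 5.04% to 9.19% elsewhere, and the 4 endothelial markers summed to 11.5 and 8.31 FPKM in them, against 0.451 to 1.21, with PECAM1 alone at a mean of 1 FPKM or more and KDR at 0.0135 FPKM at most. Values without them are therefore given beside many of the keratin results, though not all, and their part in the results was not tested. All 8 epithelial markers examined (EPCAM, CDH1, CLDN3, CLDN4, CLDN7, MUC1, ESRP1 and GRHL2) had a mean of at least 1 FPKM, and their sum lay between 194 and 252 FPKM in every library. Of 6 ovarian serous markers 3 reached 1 FPKM (PAX8, MSLN and FOLR1), while SOX17 was listed at 0 in all 6 libraries. Of 6 gut markers CDX2 alone reached 1 FPKM, and of 6 keratinocyte markers KRT10 alone did. Among leukocyte markers CD14, CD68 and LYZ reached 1 FPKM, and CD3E was listed at 0 throughout. Of 7 fibroblast markers COL1A1 and LUM did, and all 7 together summed to 3.78 to 10.3 FPKM. The part of these markers in the results was not tested.

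KRT8 and KRT18 dominated the keratin RNA. Together they made up 86.4% and 88.0% of the summed FPKM of all 55 keratin symbols in the first and the recovered DMSO library, 86.6% and 86.4% after 2 h, 85.0% after 6 h and 82.4% after 12 h. In bulk RNA, fewer cells that express a gene and less of its RNA per cell cannot be told apart. The 6 simple keratins held between 99.0% and 99.3% of the keratin sum in each library. Measured by their place among all symbols ordered by FPKM, KRT8 stood between 50 and 69 and KRT18 between 55 and 81. The stress keratins were rare, at 0.0701% and 0.102% of the keratin sum in the DMSO libraries. In the DMSO libraries the levels fell in the order KRT8, KRT18, KRT7, KRT19, then KRT80 and KRT20, then KRT17, KRT81, KRT6A and KRT16. Of neighbours in this order, the ranges over the DMSO libraries overlapped for KRT8 and KRT18, for KRT80 and KRT20, and for KRT6A and KRT16.

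**Figure D1:**
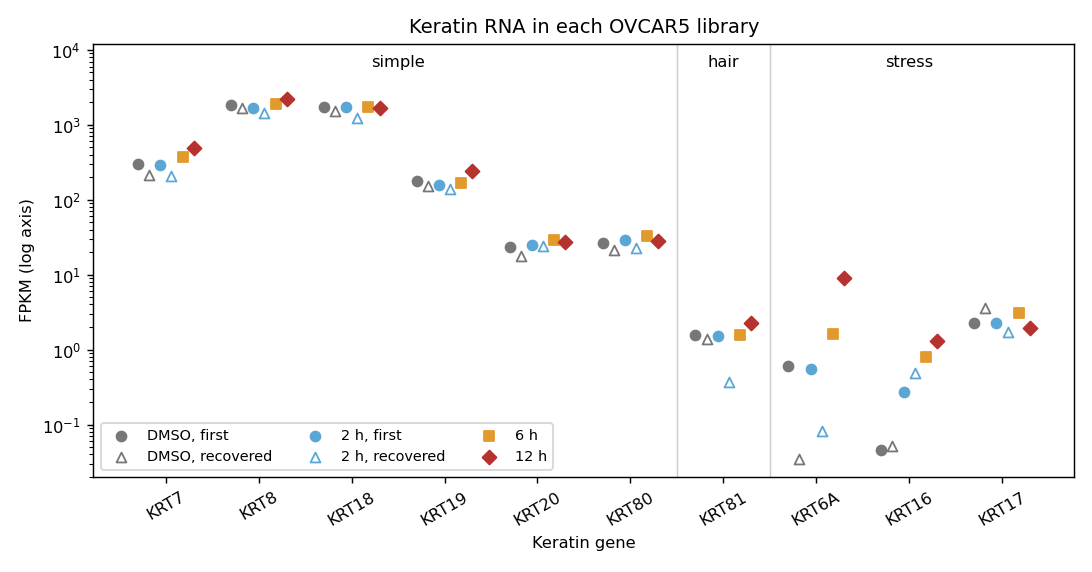
FPKM of the 10 keratins (log axis) in the 6 libraries: each point is 1 library, grey for DMSO, blue for 2 h, orange for 6 h and red for 12 h SpiD7, with open triangles for the recovered libraries. KRT8 and KRT18 lie above 1000 FPKM throughout, and KRT6A and KRT16 lie below 1 FPKM in DMSO and at 8.98 and 1.31 FPKM after 12 h.

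KRT8, the main type II keratin of simple epithelium, was at 1821 FPKM in the first and 1680 FPKM in the recovered DMSO library, 1681 and 1459 after 2 h, 1870 after 6 h and 2194 after 12 h. Both 2 h libraries lay at or below the upper DMSO value and overlapped the DMSO range, while 6 h and 12 h exceeded both DMSO libraries. On the log2(FPKM + 0.1) scale, on which all fold changes are given, KRT8 differed from the DMSO mean by −0.16 after 2 h, 0.10 after 6 h and 0.33 after 12 h. Against the first DMSO library alone the 6 h and 12 h differences were 0.04 and 0.27, and against the recovered one 0.15 and 0.39. The 12 h difference was larger in size than that between the DMSO libraries (recovered minus first, −0.12).

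KRT18, the type I partner of KRT8, was at 1742 and 1541 FPKM under DMSO, at 1719 and 1242 in the 2 h pair, then at 1723 (6 h) and 1698 (12 h). The 6 h and 12 h libraries fell between the 2 DMSO libraries, and the only value outside their range was the recovered 2 h library. The log2 fold change was −0.17 after 2 h, 0.07 after 6 h and 0.05 after 12 h (−0.02 and −0.04 after 6 h and 12 h against the first DMSO library alone), so that no difference from DMSO beyond the spread of the DMSO libraries was seen for KRT18 after 6 h or 12 h.

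The FPKM ratio of KRT18 to KRT8 was 0.957 and 0.917 under DMSO, 1.02 and 0.851 in the 2 h pair, 0.922 (6 h) and 0.774 (12 h), its lowest value. The summed type I keratins relative to the summed type II keratins stood at 0.914 and 0.905 under DMSO, at 0.962 and 0.845 in the 2 h pair, then at 0.853 (6 h) and 0.731 (12 h). At 6 h and 12 h this ratio was below both DMSO libraries, but the recovered 2 h library was lower than the 6 h library. The 12 h library was below the other 5. These ratios are formed within a library and are not altered by scaling a whole library.

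**Figure D2:**
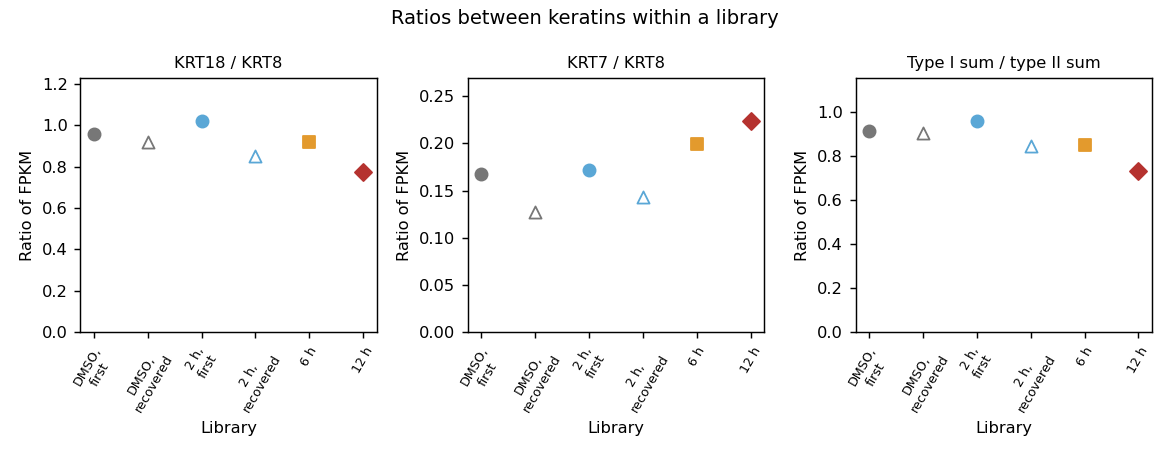
FPKM ratios within each library of KRT18 to KRT8, KRT7 to KRT8, and the type I to the type II keratin sum, 1 point per library with symbols as in the plot of keratin levels and axes from 0. At 12 h the KRT18 to KRT8 ratio (0.774) and the type I to type II ratio (0.731) are the lowest of the 6 and the KRT7 to KRT8 ratio (0.224) the highest.

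KRT7, a type II keratin of ductal and glandular epithelium, had the largest log2 fold change of the 6 simple keratins after 12 h, relative to each of the 2 DMSO libraries. It was at 304 and 215 FPKM under DMSO, at 288 and 209 in the 2 h pair, then at 372 (6 h) and 491 (12 h). The 2 h libraries overlapped DMSO and the later libraries lay above both DMSO libraries. The log2 fold change was −0.06 after 2 h, 0.54 after 6 h and 0.94 after 12 h. Relative to the first DMSO library the 6 h and 12 h values were 0.29 and 0.69, and relative to the recovered one 0.80 and 1.20. The recovered minus the first DMSO library was −0.50. The FPKM ratio of KRT7 to KRT8 was 0.167 and 0.128 under DMSO, 0.171 and 0.143 in the 2 h pair, then 0.199 (6 h) and 0.224 (12 h), and both later values lay above the other 4.

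KRT19, a type I keratin that lacks most of the tail domain, was at 179 and 154 FPKM under DMSO, at 157 and 138 in the 2 h pair, then at 168 (6 h) and 239 (12 h). Only the 12 h library lay above both DMSO libraries. Its log2 fold change was 0.53 (0.42 against the first and 0.64 against the recovered library). At 2 h and 6 h the log2 fold changes were −0.17 and 0.02, with values that overlapped or fell within the DMSO range.

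KRT20, best known from gut epithelium and urothelium, and KRT80 were expressed well below KRT7 and KRT19. KRT20 was at 23.5 and 17.6 FPKM under DMSO, at 24.8 and 24.2 in the 2 h pair, then at 28.9 (6 h) and 27.0 (12 h), and it was the only simple keratin whose 2 h libraries both exceeded the higher DMSO value, as did those of 13.7% of all tested genes. Its log2 fold change after 2 h was 0.27 ± 0.22 (SE, 2 against 2 libraries), with an adjusted p of 1 and an unadjusted p of 0.299 by limma, and the values after 6 h and 12 h were 0.51 and 0.41. Without the recovered libraries these were 0.08, 0.30 and 0.20. KRT80 was at 26.4 and 21.6 FPKM under DMSO, at 28.8 and 22.6 in the 2 h pair, then at 33.1 (6 h) and 27.9 (12 h). For KRT80 the 2 h libraries overlapped DMSO, and the log2 fold changes after 6 h and 12 h were 0.47 and 0.22 (0.32 and 0.08 against the first DMSO library alone). Both genes were highest after 6 h.

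KRT81, a type II keratin of the hair cortex, was at 1.56 and 1.38 FPKM under DMSO, at 1.53 and 0.375 in the 2 h pair, then at 1.55 (6 h) and 2.25 (12 h). The 12 h library was the highest, with a log2 fold change of 0.58 (0.50 against the first DMSO library alone). The difference of −0.83 after 2 h rested on the recovered library, since the first pair differed by −0.03. KRT81 shares its locus in the table with KRT86, and 44.6% of the 50-base stretches of its transcript also occur in transcripts of other genes (38.4% in KRT86), so that reads of the 2 genes may have been divided uncertainly. KRT86 itself was listed at 0.186 and 0.374 FPKM under DMSO, at 0.255 and 0.581 in the 2 h pair, then at 0.468 (6 h) and 0.352 (12 h).

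The stress keratins departed from this pattern in 2 of 3 genes. KRT6A and KRT16 were more than 2-fold above each DMSO library after 6 h and 12 h, and KRT17 was not. Of the 22199 genes above 0 in any library 5.9% and 7.29% were so, and of the 13287 with a mean of at least 1 FPKM, to which KRT16 does not belong, 3.21% and 3.88%. KRT6A has near-identical copies and KRT16 has close relatives, so the parts of their coding sequences that tell them apart are shown first, from the reference transcripts of GENCODE v29 on GRCh38. KRT6A lies at chr12:52487174-52493257 on the minus strand, and its copies KRT6B and KRT6C lie beside it at chr12:52446651-52452126 and chr12:52468516-52473785. The coding sequences, each of 1692 bases, are identical to that of KRT6A at 97.5% (KRT6B) and 97.9% (KRT6C) of positions. The stretch of 50 bases where KRT6A differs most from both copies is at coding positions 446 to 495, counted from the first base of the start codon. Capitals mark the bases of KRT6A that both copies lack, and the corresponding bases of the copies:
KRT6A: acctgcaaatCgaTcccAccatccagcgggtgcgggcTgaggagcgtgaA
KRT6B: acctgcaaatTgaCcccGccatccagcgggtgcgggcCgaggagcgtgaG
KRT6C: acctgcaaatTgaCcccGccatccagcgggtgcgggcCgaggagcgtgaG
In this stretch 5 bases separate KRT6A from both copies, which are the same as each other. The longest stretch of the KRT6A coding sequence that is identical to a copy runs over 349 bases in KRT6C and 269 bases in KRT6B, and 39.1% of the 50-base stretches of the KRT6A transcript also occur in transcripts of other genes.

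KRT6A, a type II keratin of wounded and hyperproliferative epidermis, was at 0.596 and 0.0350 FPKM under DMSO, at 0.552 and 0.0816 in the 2 h pair, then at 1.63 (6 h) and 8.98 (12 h). The first libraries of DMSO and 2 h were alike, as were the recovered libraries, and both later libraries exceeded every DMSO and 2 h library. The log2 fold change was 0.17 ± 1.15 after 2 h (SE, 2 against 2, limma adjusted p = 1), 2.50 after 6 h and 4.89 after 12 h. The recovered minus the first DMSO library was −2.37, which is larger in size than the 6 h difference from the first DMSO library (1.31) and smaller than the 12 h difference from that library (3.71). Against the recovered DMSO library the values were 3.68 and 6.07.

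Values of KRT6A fell on whole multiples of 1 read in all 6 libraries within 0.1 read, which corresponded to 19 and 1 reads under DMSO, 18 and 2 in the 2 h pair, then 58 (6 h) and 273 (12 h). With the relative depths of the libraries, the rate of KRT6A reads after 12 h was 27.1 times that of both DMSO libraries together (95% interval 17.2 to 45.1), after 6 h 4.93 times (2.92 to 8.65) and after 2 h 1.06 times (0.540 to 2.07). These intervals cover counting error only, compare libraries rather than conditions, and include no replicate error after 6 h or 12 h. The DMSO rate pools the 19 reads of the first library with the 1 read of the recovered one, a difference that the intervals leave out. No rate against the first DMSO library alone was computed. The log2 fold changes against that library were 1.31 after 6 h and 3.71 after 12 h, lower than against the mean of both. KRT6A reached the filter of a mean of 1 FPKM only through the 12 h library. In the authors' mean columns KRT6A stood at 0.315 FPKM for DMSO and 0.317 FPKM for 2 h. Its copies were low: KRT6B was listed at most at 0.142 FPKM and KRT6C at most at 0.0606 FPKM in any library.

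KRT16, the type I partner of KRT6A, lies at chr17:41609778-41615899 on the minus strand of GRCh38, in the same cluster as its relatives KRT14 (chr17:41582279-41586921) and KRT17 (chr17:41619441-41624842). Its coding sequence is identical to that of KRT14 at 85.2% and to that of KRT17 at 72.5% of aligned positions. The 50 bases where KRT16 differs most from both are shown to set the 3 genes apart. They are coding positions 978 to 1027 in KRT16, 972 to 1021 in KRT14 and 879 to 928 in KRT17. Capitals mark bases of KRT16 that differ from both relatives, and bases of each relative that differ from KRT16:
KRT16: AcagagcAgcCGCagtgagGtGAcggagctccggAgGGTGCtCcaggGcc
KRT14: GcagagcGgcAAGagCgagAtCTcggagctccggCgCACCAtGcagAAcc
KRT17: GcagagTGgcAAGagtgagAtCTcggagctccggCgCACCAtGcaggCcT
KRT16 differs from both relatives at 16 of these bases, and 22.0% of the 50-base stretches of its transcript also occur in transcripts of other genes.

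KRT16 was at 0.0463 and 0.0517 FPKM under DMSO, at 0.272 and 0.482 in the 2 h pair, then at 0.790 (6 h) and 1.31 (12 h). Every SpiD7 library lay above both DMSO libraries, and the level was higher at each later time. In reads these were 1 and 1 under DMSO, 6 and 8 in the 2 h pair, then 19 (6 h) and 27 (12 h). The rate relative to both DMSO libraries was 7.41 times after 2 h (95% interval 1.70 to 67.2), 16.2 times after 6 h (3.90 to 143) and 26.8 times after 12 h (6.75 to 233), and the width of these intervals comes from the 2 reads in DMSO. The log2 fold change was 1.64 after 2 h, 2.58 after 6 h and 3.25 after 12 h, and without the recovered libraries 1.35, 2.60 and 3.27. The authors' means of KRT16 were 0.0490 FPKM for DMSO and 0.377 FPKM for 2 h. The pseudocount of 0.1 exceeds the DMSO values of KRT16 and so understates the change. Since its mean was 0.492 FPKM, KRT16 was not among the 13287 genes tested. In the limma fit without a filter on low values its 2 h difference had an SE of 0.28, with an adjusted p of 0.679 (0.0132 before adjustment), and it did not pass.

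KRT17, a type I keratin induced in wounded epidermis and in many carcinomas, was the most abundant stress keratin under DMSO, at 2.25 and 3.64 FPKM. It was at 2.25 and 1.73 FPKM after 2 h, 3.12 after 6 h and 1.95 after 12 h. The 2 h libraries overlapped DMSO, the 6 h library lay between the DMSO libraries, and the 12 h library lay below both. Its log2 fold change was −0.52 after 2 h, 0.12 after 6 h and −0.53 after 12 h. The 2 h value rested on the recovered libraries, since the first pair differed by 0.0017 and the recovered pair by −1.03. Relative to the first and the recovered DMSO library the 6 h value was 0.45 and −0.22, and the 12 h value −0.20 and −0.87. The DMSO libraries differed by 0.67, so that no change beyond the replicate spread was seen.

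**Figure D3:**
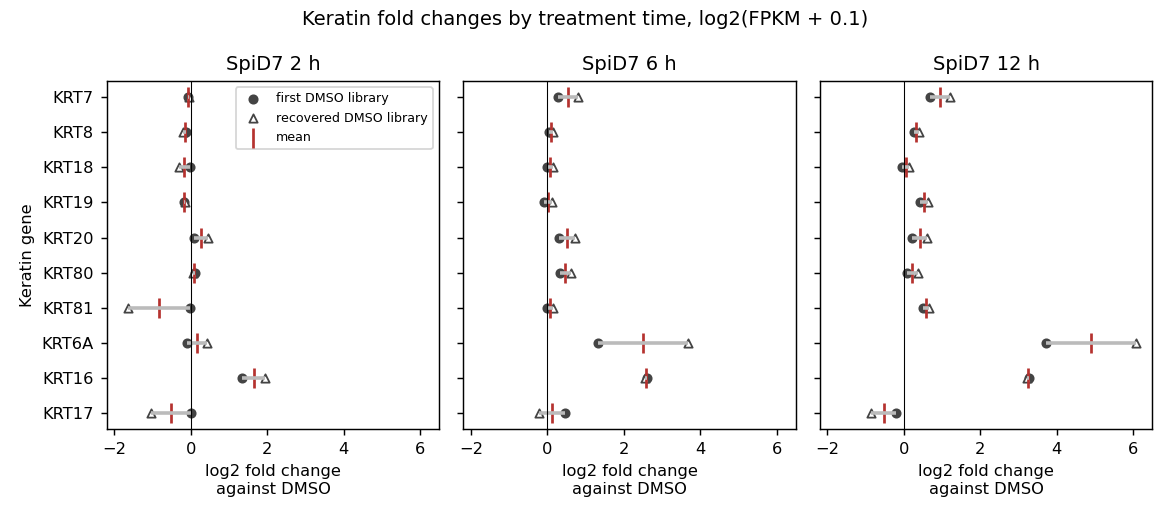
Log2 fold changes of the 10 keratins after 2 h, 6 h and 12 h, on log2(FPKM + 0.1). Filled circles use the first DMSO library as the reference and open triangles the recovered one (after 2 h, the first and the recovered pair), grey bars join the 2 values and red ticks give their mean. At 12 h KRT6A (3.71 and 6.07) and KRT16 (3.27 and 3.22) are far to the right of the other 8 keratins.

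The 3 stress keratins made up unequal parts of their sum. The summed FPKM of KRT6A, KRT16 and KRT17 was 2.89 and 3.73 under DMSO, 3.08 and 2.29 in the 2 h pair, then 5.54 (6 h) and 12.2 (12 h). KRT17 contributed 77.8% and 97.7% of this sum in DMSO but 56.3% after 6 h and 15.9% after 12 h. KRT6A contributed 20.6% and 0.939% under DMSO, 17.9% and 3.56% in the 2 h pair, then 29.4% (6 h) and 73.3% (12 h). The stress keratins reached 0.131% of all keratin FPKM after 6 h and 0.259% after 12 h, above the DMSO values of 0.0701% and 0.102% and the 2 h values of 0.0784% and 0.0733%.

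**Figure D4:**
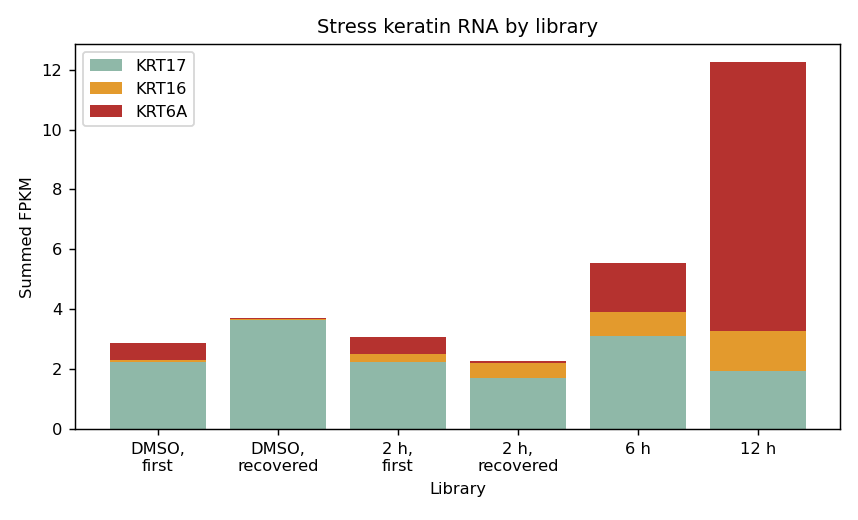
Summed FPKM of KRT17, KRT16 and KRT6A in each library as stacked bars from 0. The sum is 2.89 and 3.73 FPKM in DMSO and 12.2 FPKM after 12 h, where KRT6A makes up 73.3% of it.

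Set side by side, the simple keratins had a median log2 fold change of −0.11 after 2 h, 0.28 after 6 h and 0.37 after 12 h, and the stress keratins of 0.17, 2.50 and 3.25, while the median of all 13287 tested genes was −0.01, 0.03 and −0.05. The stress median thus exceeded the simple median by 2.21 after 6 h and 2.88 after 12 h. This is a description of chosen genes with no test, and the stress median is that of 3 genes that moved unequally. Without the recovered libraries the stress medians were 0.0017, 1.31 and 3.27 and the simple medians −0.05, 0.16 and 0.23. None of the 6 simple keratins differed more than 2-fold from the DMSO mean at any time, although KRT7 was more than 2-fold above the recovered DMSO library after 12 h (log2 difference 1.20). Of all tested genes 0.662%, 3.1% and 3.76% were more than 2-fold lower after 2 h, 6 h and 12 h. Of the 3 stress keratins 1 (KRT16) was more than 2-fold higher than the DMSO mean after 2 h, and 2 (KRT6A and KRT16) after 6 h and 12 h, with the same counts against the first DMSO library alone. Among the 22199 genes above 0 in any library the shares were 3.43%, 9.05% and 10.8%, and among the tested genes, which leave out KRT16 and hold KRT6A only through its 12 h value, 2.32%, 5.66% and 6.48%. Lying above both DMSO libraries was common among all genes: it held for 4 of 6 simple keratins after 6 h (31.6% of all) and 5 of 6 after 12 h (30.1% of all), and after 2 h for 1 of 6 (13.7% of all). Of the DMSO libraries the recovered one had the lower value for all 6 simple keratins, as it had for 54.1% of all genes. The shares of all genes given for lying above or below both DMSO libraries, and those that follow, are of the 13287 tested genes. These leave out KRT16 and hold KRT6A only through its 12 h value, so they are no like background for counts of all 10 members. No such share was computed over the 22199 genes. None of the 10 members lay below both DMSO libraries after 2 h (8.1% of all tested genes) or 6 h (29.2%). The 12 h library was the highest of the 6 for 6 of 10 members, KRT6A and KRT16 among them (18.3% of all tested genes). In KRT7 and KRT8 the differences within both 2 h pairs were negative and those of the 6 h library from both DMSO libraries positive, and 7.79% of all genes had such opposite signs. For 12 h this held in KRT7, KRT8, KRT19 and KRT81 (12.2% of all). At 12 h, 8 of the 10 members, KRT6A and KRT16 among them, lay above both DMSO libraries (30.1% of all tested genes). KRT17 alone lay below both (35.6%).

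The replicated comparison after 2 h called none of the 9 members tested. By limma, 3 of 13287 genes (0.0226%) passed an adjusted p of 0.05 while differing more than 2-fold. Each of the 9 members had an adjusted p of 1, and 0 of 9 had an unadjusted p under 0.05, against 378 of all genes (2.84%). The lowest unadjusted p of a member was 0.200 for KRT17, whose 2 h difference rested on the recovered libraries (0.0017 in the first pair). With 2 libraries on each side a lack of a call does not show that the members were unchanged.

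Reads of several members cannot be assigned to 1 gene with certainty. KRT8 (chr12:52897187-52949954, minus strand) and KRT18 (chr12:52948871-52952901, plus strand) overlap on opposite strands and were given 1 joint locus in the table. Of the 50-base stretches of KRT8, compared on both strands, 41.3% recur in other genes, among them the processed pseudogene KRT8P3 (24.1%). Of those of KRT18, 47.6% do, among them transcripts of KRT8 (21.5%) and KRT18 pseudogenes. The share was 10.8% for KRT7, nearly all of it in the antisense gene KRT7-AS, which a kit that does not mark strand cannot separate, 16.0% for KRT17, 1.79% for KRT19, 0.420% for KRT80 and 0% for KRT20. The promoters of KRT8 and KRT20, the only members in the RefSeq promoter table, were searched on both strands for 4 motifs: TGANTCA (AP-1, in 7.71% of 35116 promoters), TGACGTCA (CRE, 1.85%), TGACNNNGC (antioxidant response element, 13.3%) and GAANNTTC (heat shock element core, 6.77%). None of the 4 motifs was found in either promoter. Since each motif is absent from most promoters, its absence here says little about these genes.

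The other keratins gave little RNA. Of 45 further symbols 4 had a mean of at least 1 FPKM: KRT10, a keratin of differentiated epidermis, KRT13 of internal stratified epithelia, KRT15 of basal cells, and KRT23. KRT10 was at 5.45 and 6.33 FPKM in DMSO and 6.67 after 12 h, and KRT23 at 13.7 and 13.3 in DMSO and 12.5 after 12 h. KRT13 was at 1.90 and 1.19 FPKM in DMSO and 2.05 after 12 h. KRT15 was at 1.37 and 1.44 under DMSO, at 0.755 and 1.33 in the 2 h pair, then at 0.578 (6 h) and 0.992 (12 h), and was more than 2-fold lower after 6 h (log2 fold change −1.15). The 41 symbols below 1 FPKM were above 0 in 10 and 9 cases under DMSO, 10 and 9 in the 2 h pair, then 21 (6 h) and 19 (12 h). Their summed FPKM was 1.65 and 3.45 under DMSO, 1.44 and 2.70 in the 2 h pair, then 3.53 (6 h) and 7.11 (12 h). Of all 8912 symbols with a mean below 1 FPKM and a value above 0 in any library, 56.8% and 65.5% were above 0 under DMSO, 62.4% and 67.7% in the 2 h pair, 74.4% after 6 h and 74.5% after 12 h. Of the 41 keratins 28 belong to these symbols. The part of this wider detection in the keratin counts was not tested. Examples chosen after their values were seen were KRT14, a basal epidermal keratin, listed at 0 in all 4 DMSO and 2 h libraries and at 0.132 FPKM after 6 h and 0.771 after 12 h, KRT27, a hair follicle keratin, at 0 in those 4 libraries and at 0.0447 and 1.25, and KRT33B, a hair keratin, at 0.0999 and 0 in DMSO and at 1.26 after 12 h. Others were not higher than both DMSO libraries after 12 h: KRT5, the partner of KRT14, was at 0.872 and 0.150 FPKM in DMSO and 0.457 after 12 h, and KRT4, of internal stratified epithelia, at 0.145 and 2.18 in DMSO and 1.06 after 12 h.

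Genes that work with keratins were read from 5 lists. Called measured are those with a mean of at least 1 FPKM over the 6 libraries, treated ones included. In the order below they were 13 of 16, 8 of 14, 15 of 15, 7 of 18 and 16 of 19 genes. The 3 stress keratins were counted above without this filter. Of 13 measured genes of desmosomes and keratin linkers, 0 were more than 2-fold higher or lower after 12 h, where 6.48% of all tested genes were higher and 3.76% lower. DSP, the desmoplakin that ties keratin filaments to desmosomes, was at 8.36 and 8.99 FPKM under DMSO, at 8.80 and 10.8 in the 2 h pair, then at 13.2 (6 h) and 14.1 (12 h). DSC2, a desmosomal cadherin, had a log2 fold change of 0.39 after 12 h. The lowest values of this list after 12 h were those of DSG2 (−0.56), a desmosomal cadherin, and PKP4 (−0.49), an armadillo protein. Of 8 measured intermediate filament genes other than keratins, 0 were more than 2-fold higher or lower after 12 h (6.48% and 3.76% of all). Against the first DMSO library alone 1 was higher and 2, LMNB1 and LMNB2, were lower (8.21% and 4.03% of all). LMNB1 and LMNB2, the B-type lamins, had log2 fold changes of −0.82 and −0.64 (−1.31 for LMNB1 against the first DMSO library alone), and SYNM and LMNA of 0.21 and 0.22.

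Among 15 partners and turnover factors of keratins, 2 were more than 2-fold higher after 12 h and 0 lower (6.48% and 3.76% of all). Against the first DMSO library alone 3 were higher and 1 lower (8.21% and 4.03% of all). HSPB1, a small heat shock protein that binds keratin filaments, was at 200 and 231 FPKM under DMSO, at 217 and 266 in the 2 h pair, then at 406 (6 h) and 1040 (12 h). Its 12 h log2 fold change was 2.27, and its level lay above both DMSO libraries after 6 h and 12 h. SFN, a 14-3-3 protein of epithelia that binds KRT17, was at 81.0 and 34.9 FPKM under DMSO, at 83.0 and 44.4 in the 2 h pair, then at 118 (6 h) and 138 (12 h), with a log2 fold change of 1.37 (0.77 against the first DMSO library alone). TCHP, the keratin-binding trichoplein, and STUB1, a ubiquitin ligase, were lowest, at −0.48 and −0.37 (−1.08 and −0.62 against the first DMSO library alone).

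Of 7 measured genes of the cornified envelope and barrier alarm list, 2 were more than 2-fold higher after 12 h and 3 lower (6.48% and 3.76% of all). Against the first DMSO library alone 1 was higher and 0 lower (8.21% and 4.03% of all). SBSN, suprabasin of differentiating epidermis, was at 0.786 and 0.352 FPKM under DMSO, at 1.05 and 1.31 in the 2 h pair, then at 3.42 (6 h) and 11.7 (12 h), a log2 fold change of 4.22. SPRR3, a cornified envelope protein, had 1.23, and 0.86 against the first DMSO library alone. The negative values of S100A9 and PI3 (−2.28 and −1.98) rested on the recovered DMSO library: S100A9, an alarm protein of stressed epidermis, was at 12.5 and 220 FPKM in DMSO and 10.7 after 12 h, and its difference from the first DMSO library alone was −0.22, while that of PI3, the protease inhibitor elafin, was 0.23. Of 16 measured regulators of keratin genes, 1 was more than 2-fold higher after 12 h and 1 lower (6.48% and 3.76% of all). Against the first DMSO library alone 6 were higher and 0 lower (8.21% and 4.03% of all). MYC was at 105 and 279 FPKM in DMSO and 363 after 12 h, a log2 fold change of 1.08 (1.79 against the first DMSO library alone). KLF5, a regulator of epithelial proliferation, was at 19.5 and 34.8 FPKM under DMSO, at 46.0 and 61.8 in the 2 h pair, then at 62.0 (6 h) and 47.2 (12 h), and its 12 h log2 fold change was 0.85, or 1.27 against the first DMSO library alone. EHF, an epithelial transcription factor of the ETS family, had a log2 fold change of −1.78, but of −0.64 against the first DMSO library, and GRHL2, a grainyhead factor, had −0.93 and lay at 2.49 FPKM after 12 h against 4.48 and 5.27 in DMSO. None of the measured genes of these 5 lists was called after 2 h, when only 3 of all 13287 tested genes (0.0226%) were.

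The patterns most like that of KRT8, the most abundant simple keratin, over the 6 libraries were those of UBTD1 (Pearson r = 0.996), of TGIF2, TGIF2-C20orf24 and C20orf24 (0.991, rows with the same values) and of PXN-AS1 (0.991). Among the other members with a mean of at least 1 FPKM, r with KRT8 was 0.960 for KRT19, 0.933 for KRT7, 0.905 for KRT6A, 0.861 for KRT81, 0.740 for KRT18, 0.558 for KRT80, 0.413 for KRT20 and 0.066 for KRT17. For KRT17, the stress keratin of highest mean level, they were LOC102724297 (0.968), DLK2 (0.944), TRNS1 (0.936), SCARNA9 (0.934) and LOC102724077 (0.930), of which TRNS1 was listed at 0 in 4 libraries. With KRT17 r was −0.25 for KRT6A. These coefficients describe 6 libraries that share their scaling.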

How the data were processed

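The 6 libraries came from RNA of OVCAR5 cells and were made with a TruSeq V2 kit. The submitters' processing notes name Trim Galore, TopHat2 2.0.8, Cufflinks 2.1.1 and Cuffdiff 2.1.1, with the builds hg38 and GRCm38, and the loci in the table are human. In the deposited table the authors gave FPKM in 8 columns, a pair for each of 4 separately scaled Cuffdiff comparisons, with a log2 fold change, a p-value and a q-value per comparison, which were not used. No column was without a sample or group (0 columns). Read counts were not used here, and total depth is not given by the values.

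The 6 h and 12 h libraries were divided by 0.972 and 0.994, the scale of the shared DMSO library in their comparisons. In the columns named for replicate 2, no row above 0 in the first library was at 0, and the values kept to a lower limit of 0.526 (DMSO) and 0.509 (2 h) times the first library. They were read as the authors' means of both libraries, and each second library was recovered as the mean divided by this share, less the first library. The reading was chosen after the data were examined and is not described in the paper's text. A remainder under 0.2% was taken as 0.

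Rows of a symbol were summed (33085 rows). Tests used log2(FPKM + 0.1) in limma 3.58.1 (R 4.3.3, lmFit, eBayes, Benjamini-Hochberg) over the 13287 genes with a mean of at least 1 FPKM, 2 h against DMSO, called at an adjusted p under 0.05 and more than 2-fold. The 6 h and 12 h libraries have no replicate and were set against the mean log2 of DMSO without a test. The script was tested on simulated data. Where the low values of a member fell on whole multiples of 1 read (within 0.1), reads were counted. The 95% intervals of ratios of read rates are exact binomial intervals of the treated share of the reads, converted with the relative depths. The value of 1 read placed the other libraries at 0.769 to 1.11 times the depth of the first DMSO library. Stretches of 50 bases, coordinates and sequences were read from GENCODE v29 (GRCh38) and promoters from RefSeq. Python 3.11.15 and pandas 2.3.3 were used.

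The members and gene lists were chosen with earlier results of these data known. Named are all members, every other keratin with a mean of at least 1 FPKM, the 2 highest and 2 lowest of each other list at 12 h, and the 5 genes most correlated with KRT8 and with KRT17. The fits were repeated with another pseudocount, filter or scaling, with the highest row of a symbol, with limma using an intensity trend or a replicate block, with the authors' means, without each replicate and, added after the data were seen, without both recovered libraries.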

Additional observations from a re-analysis of the deposited data

Results flagged for a closer look

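For 4 keratins the differences from DMSO at 2 h and at a later time had opposite signs. The 2 h signs are those within both same-numbered pairs, although the numbers were not taken as a pairing. The later signs are those against both DMSO libraries. Without regard to pairs, the 2 h libraries of all 4 keratins overlapped DMSO. The difference between times was not tested. KRT7 was lower in both 2 h pairs (−0.08 and −0.04 on the log2 scale) and higher later, so that its log2 fold change was 0.60 greater at 6 h than at 2 h and 1.00 greater at 12 h. KRT8, at −0.12 and −0.20 in the 2 h pairs, was 0.26 greater at 6 h and 0.49 greater at 12 h. KRT19, at −0.18 and −0.15 in the 2 h pairs, was 0.70 greater at 12 h. KRT81, at −0.03 and −1.64 in the 2 h pairs, was 1.42 greater at 12 h. Such opposite directions were seen in 7.79% of all tested genes for 6 h and in 12.2% for 12 h.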

How the results depend on the processing

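The medians at 6 h and 12 h kept their sign, and the stress median stayed above the simple median, under every alternative run. With a pseudocount of 1 the stress medians at 6 h and 12 h were 0.77 and 1.14 and exceeded the simple medians by 0.50 and 0.78, and with 0.01 the 12 h median was 4.49 and the excess 3.03 at 6 h and 4.12 at 12 h. With only the members of a mean of at least 1 FPKM, which drops KRT16 and keeps KRT6A only through its 12 h value, the stress medians were −0.17, 1.31 and 2.18 and the excess −0.065, 1.03 and 1.81 at 2 h, 6 h and 12 h. Median-ratio and upper-quartile scaling gave 12 h stress medians of 3.28 and 3.29, and no scaling moved the median of all genes by over 0.1. Leaving out both recovered libraries gave a simple median of −0.050 at 2 h, a 6 h stress median of 1.31 and an excess of 1.15. Leaving out 1 library at a time gave simple medians of −0.26 to 0.12, stress medians of −0.70 to 1.35 and an excess of −0.44 to 1.28 at 2 h, so that no direction at 2 h held, and stress medians of 1.31 (without the recovered DMSO library) to 2.55 and an excess of 1.15 to 2.16 at 6 h.

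Of the members, KRT16 and KRT20 kept a positive sign at all 3 times, and KRT6A, KRT7, KRT8 and KRT80 at 6 h and 12 h, as did KRT19 and KRT81 at 12 h. KRT17 kept a negative sign at 12 h (−0.87 to −0.20), as did KRT8 and KRT19 at 2 h. Every other sign changed under some alternative. No member was called at 2 h under any setting, and the lowest adjusted p of a member over them was 0.385. The number of genes called at 2 h was 1 with a pseudocount of 1 and with either scaling, 6 with a pseudocount of 0.01, 5 with an intensity trend, 0 without a filter (1198 genes with an unadjusted p under 0.05) and 0 to 21 when 1 library was left out, where the lone library is assumed to vary like the others. With a replicate block 0 genes were called, 1874 had an unadjusted p under 0.05, and the lowest adjusted p of a member was 0.385 (KRT19). The deviations of same-numbered libraries had a correlation of 0.37 over 13287 genes, so that these libraries deviated together. With 2 pairs and no label that names a shared batch, the numbers were not taken as a pairing. Low reads limit KRT6A and KRT16, and the single libraries at 6 h and 12 h limit every later value.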
